A study of Mus musculus with 3 samples.

Results

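The genes described here are 32 named members of glucose breakdown and of the response to low oxygen, taken by their symbols from the count tables, without use of their measured values. Of these, 30 had a row among the 19059 genes of the tables. Gapdh and Eno1 were not analysed here. The cells were viable CD45+ cells sorted from mouse liver at postnatal day 0, CD45 being the surface protein shared by white blood cells. They were fixed and measured one by one with gene-specific probes (the 10x Genomics Flex assay). There were 3 libraries: Pex2 homozygous null (KO), Pex2 heterozygous (labelled Het) and Pex2 wild type (labelled WT). Pex2 encodes a membrane protein that peroxisomes need to import their enzymes, and its loss models severe Zellweger disease. Each genotype had 1 library, the sources used here give no number of animals per library, and no difference below could be tested. The question the libraries put to these genes is whether the expression of sugar metabolism differed in liver immune cells without Pex2.

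Glycolysis takes glucose in through carriers of the Slc2a family, traps it with hexokinases and splits it into pyruvate. Pyruvate is either turned to lactate by lactate dehydrogenase and exported by Slc16a carriers, or passed to mitochondria through pyruvate dehydrogenase. When oxygen is scarce, or when cells grow or become activated, hypoxia-inducible factor 1 (HIF-1) raises many of these genes together with others such as Vegfa and Bnip3. Neutrophils live largely on glycolysis, and dividing precursor B cells take up much glucose as well.

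HIF-1 binds DNA at a short core, ACGTG or GCGTG, and the promoters of the members differed in how many matches to it they held. Promoter windows of 300 bases (250 before and 50 after the RefSeq start, GRCm38.p6) were found for 28 of the 30 members. Slc2a3 and Ero1l had no entry. Only the first listed start of each gene was used, and any other starts of a gene were not searched. Both strands were searched and overlapping matches were counted once. A core was present in 22 of 28 members, against 43.8% of 27025 promoters, and 3 or more cores in 7 members (Pfkp, Aldoc, Pgam1, Ldha, Slc16a1, Pdha1 and Bnip3), against 6.68%. The motif CACGTG, an E-box that Myc and related factors bind and that overlaps the core, was present in 5 members, against 7.24% of promoters. A match is a description of letters and not a site, and the comparison promoters were not matched for expression or base content. The promoters below, chosen after the values were seen, are those of the 6 members that lay below both other libraries in KO in every cell class, followed by Bnip3. Under some alternatives that order turned. In the neutrophil lineage KO came above labelled Het for Aldoa and Pgam1 under TMM or median-of-ratios scaling. For Pgam1 it did so there also with cells thinned to 3000 UMIs or composition held equal. In macrophage-like cells KO came above labelled Het for Pfkp with Leiden clusters, and above labelled WT for Slc2a1 with thinned cells. The promoters are written 5′ to 3′, and capitals mark the core on either strand, with the full CACGTG where it occurs.
Ldha promoter, chr7:46845554-46845853, plus strand: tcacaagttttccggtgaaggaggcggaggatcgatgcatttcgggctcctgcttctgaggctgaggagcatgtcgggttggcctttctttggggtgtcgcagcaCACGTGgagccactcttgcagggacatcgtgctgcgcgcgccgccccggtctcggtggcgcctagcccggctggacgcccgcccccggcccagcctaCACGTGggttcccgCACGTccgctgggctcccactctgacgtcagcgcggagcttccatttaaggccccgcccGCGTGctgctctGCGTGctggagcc
Slc2a1 promoter, chr4:119108495-119108794, plus strand: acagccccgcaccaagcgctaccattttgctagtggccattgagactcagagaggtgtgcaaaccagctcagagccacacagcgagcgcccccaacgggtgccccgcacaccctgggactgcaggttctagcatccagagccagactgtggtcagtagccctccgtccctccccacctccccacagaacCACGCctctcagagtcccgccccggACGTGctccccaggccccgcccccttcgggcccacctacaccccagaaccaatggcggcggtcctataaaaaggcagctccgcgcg
Pfkp promoter, chr13:6648722-6649021, minus strand: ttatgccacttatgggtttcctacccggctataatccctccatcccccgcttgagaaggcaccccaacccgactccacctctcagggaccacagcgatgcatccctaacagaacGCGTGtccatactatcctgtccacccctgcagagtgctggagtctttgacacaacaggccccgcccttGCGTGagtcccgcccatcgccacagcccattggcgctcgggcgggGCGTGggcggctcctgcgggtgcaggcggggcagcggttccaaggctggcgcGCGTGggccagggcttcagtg
Pgam1 promoter, chr19:41911621-41911920, plus strand: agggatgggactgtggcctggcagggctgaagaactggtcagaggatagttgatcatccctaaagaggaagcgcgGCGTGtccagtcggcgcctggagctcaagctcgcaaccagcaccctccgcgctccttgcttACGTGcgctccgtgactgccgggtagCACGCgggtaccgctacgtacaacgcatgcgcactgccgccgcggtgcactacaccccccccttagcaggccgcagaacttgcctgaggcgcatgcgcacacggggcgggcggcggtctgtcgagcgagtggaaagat
Tpi1 promoter, chr6:124814109-124814408, minus strand: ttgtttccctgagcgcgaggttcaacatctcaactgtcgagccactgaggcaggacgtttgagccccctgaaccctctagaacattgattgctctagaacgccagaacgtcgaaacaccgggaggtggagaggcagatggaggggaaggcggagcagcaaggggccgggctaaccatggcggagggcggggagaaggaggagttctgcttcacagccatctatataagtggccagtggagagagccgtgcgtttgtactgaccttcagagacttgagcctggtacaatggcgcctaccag
Aldoa promoter, chr7:126800398-126800697, minus strand: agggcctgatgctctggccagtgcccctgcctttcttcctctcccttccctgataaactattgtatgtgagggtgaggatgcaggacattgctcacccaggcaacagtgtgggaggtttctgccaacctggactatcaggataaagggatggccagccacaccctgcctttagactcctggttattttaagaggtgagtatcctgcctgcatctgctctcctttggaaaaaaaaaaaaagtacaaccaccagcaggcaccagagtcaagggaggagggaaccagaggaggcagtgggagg
Bnip3 promoter, chr7:138909457-138909756, minus strand: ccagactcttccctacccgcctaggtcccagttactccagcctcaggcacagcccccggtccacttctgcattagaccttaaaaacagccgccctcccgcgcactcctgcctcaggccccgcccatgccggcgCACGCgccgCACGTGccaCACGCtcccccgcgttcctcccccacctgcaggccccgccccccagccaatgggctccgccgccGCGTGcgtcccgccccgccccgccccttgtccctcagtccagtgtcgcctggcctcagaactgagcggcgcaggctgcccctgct
Ldha held 5 cores, 2 of them within CACGTG. Pfkp held 4, Pgam1 3 and Slc2a1 2, whereas Tpi1 and Aldoa held none. Bnip3 held 4 cores, 1 of them within CACGTG. Vegfa, Gpi1, Hk1 and Pkm also held none in this window.

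Values are CPM, which here are a gene's UMIs (tags that count single captured molecules) per 1000000 UMIs of the library or cell class. Their 95% intervals cover counting error only. The KO library held 186295183 UMIs in 8245 barcodes, the library labelled Het 144589956 in 8000 and the library labelled WT 96629431 in 9600. Pex2 had 2 UMIs in KO, 7704 in labelled Het (53.3 CPM) and 2283 in labelled WT (23.6 CPM). The order of the control libraries goes against their labels, so they are called by their labels throughout. Ddx3y, which is Y-linked, had 3, 2 and 7956 UMIs in that order of libraries, and the X-linked members Pgk1 and Pdha1 are compared with that difference present. Ptprc, the gene for CD45, was at 311 CPM in KO, 250.1 in labelled Het and 248.9 in labelled WT. Hepatocyte markers summed to 109.5 CPM in KO, 95.6 in labelled Het and 101 in labelled WT. The median UMIs per barcode were 19348 in KO, 15558.5 in labelled Het and 8218.5 in labelled WT, so the KO cells were read deepest, and the libraries shared 0 full barcodes.

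Cells were placed in classes by their summed marker UMIs, and 6 classes had at least 50 cells in each library. Neutrophil-lineage-like cells numbered 5337 in KO, 5032 in labelled Het and 6076 in labelled WT. Monocyte-like cells numbered 1160, 706 and 796 in the same order, macrophage-like cells 124, 91 and 83, and B-lineage-like cells 870, 1234 and 1815. Erythroid-like cells numbered 125, 212 and 98, and basophil or mast-like cells 62, 91 and 63. Moving every threshold to 0.8 or 1.2 times its value changed the class of 236 KO, 305 labelled Het and 333 labelled WT cells. A class set this way is a range of marker levels and not a sharp type.

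As a list, the members were more often lower in KO than all genes were in monocyte-like, macrophage-like, B-lineage-like and erythroid-like cells, and the excess was smaller in the neutrophil lineage. The rule used below asks for a KO level at least 1.5-fold beyond both other libraries on the same side, among genes with a mean of at least 10 CPM. In monocyte-like cells 9 of 27 members were lower by this rule, against 10.5% of all genes, and 0 were higher, against 5.15%. In macrophage-like cells 8 of 27 were lower, against 10.3%, and 1 was higher, against 10.9%. In B-lineage-like cells 10 of 24 were lower, against 12.8%, and 1 was higher, against 9.74%. Dividing cells were 132 of 870 B-lineage-like cells in KO, 552 of 1234 in labelled Het and 703 of 1815 in labelled WT. Among dividing cells 7 of 26 members were lower, against 7.41%, and among those not dividing 10 of 26, against 11.6%. In each of these subsets 1 member was higher, against 7.19% and 4.7%. Without dividing and surrogate light chain cells 2 of 23 were lower, against 7.21%, and 2 were higher, against 4.61%. In each of these 3 whole classes the share of members that were lower stood above that of all genes, and the share that were higher did not.

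In erythroid-like cells 9 of 27 members were lower, against 10.4% of all genes, and 0 were higher, against 6.41%. The count was 6 of 29 in basophil or mast-like cells, against 7.69%, and 1 was higher, against 8.04%. In neutrophil-lineage-like cells 6 of 27 were lower, against 10.2%, and over all cells 7 of 27, against 13.6%. Members higher by the rule numbered 0 in the neutrophil lineage (background 2.61%) and 0 over all cells (2.73%). Below both other libraries by any amount were 18 of 27 members in the neutrophil lineage, against 48.9% of all genes, and 18 of 27 over all cells, against 54.9%. The counts were 18 of 27 in monocyte-like cells (45.7%), 18 of 27 in macrophage-like cells (34.7%), 19 of 24 in B-lineage-like cells (42.5%), 16 of 27 in erythroid-like cells (43.9%) and 15 of 29 in basophil or mast-like cells (34.6%).

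Some of these members passed the 10 CPM minimum only through the libraries where they were high. Of the members counted as lower, KO was under 10 CPM for Slc16a1 in the neutrophil lineage, Vegfa in monocyte-like and in basophil or mast-like cells, Pfkm in B-lineage-like cells and Ldhb in erythroid-like cells. Of those counted as higher, both other libraries were under 10 CPM for Bnip3 in basophil or mast-like cells, which was the one member higher there. In the subsets described below, lower members with KO under 10 CPM were Pfkm in granulocyte precursors and Vegfa in dividing and non-dividing monocyte-like cells. In B-lineage-like cells that were not dividing they were Pfkm, Ldhb and Slc16a3.

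Under TMM scaling the all-cell counts became 1 lower and 3 higher, and the neutrophil counts 3 lower and 2 higher. The all-cell members were then Slc16a1 lower and Gpi1, Pkm and Ldhb higher, and those of the neutrophil lineage Pfkp, Slc16a1 and Pdk1 lower and Gpi1 and Pkm higher. Smaller ratios turned sign as well. In the neutrophil lineage KO came above labelled Het for Hk1, Pfkfb3, Pfkfb4, Aldoa, Pgam1, Egln1, Egln3 and Ero1l, among others, and in monocyte-like cells for Hk1 and Pdha1. That scaling moved the median log2 ratio of all genes over all cells to 0.18 against labelled Het and 0.14 against labelled WT. Without it these medians were -0.16 and -0.14. The member medians over all cells were -0.24 and -0.30. Minus those of all genes they came to -0.080 and -0.16 with or without that scaling.

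The median log2 ratio of the members was -0.67 against labelled Het and -0.63 against labelled WT in B-lineage-like cells, where that of all genes was near 0 in both. In monocyte-like cells it was -0.49 and -0.30, beside -0.031 and -0.065 for all genes. In macrophage-like cells it was -0.56 and -0.26, beside 0.032 and 0.043. The neutrophil-lineage medians were -0.28 and -0.36, beside -0.11 and -0.066. The median of labelled Het over labelled WT, the only gauge of differences between libraries, was at most 0.21, in macrophage-like cells. Mitochondrially encoded transcripts were higher in KO, with a sum in B-lineage-like cells of 10151 CPM in KO, 4516 in labelled Het and 3052 in labelled WT. Their part in the CPM of the members was not tested.

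**Figure D1:**
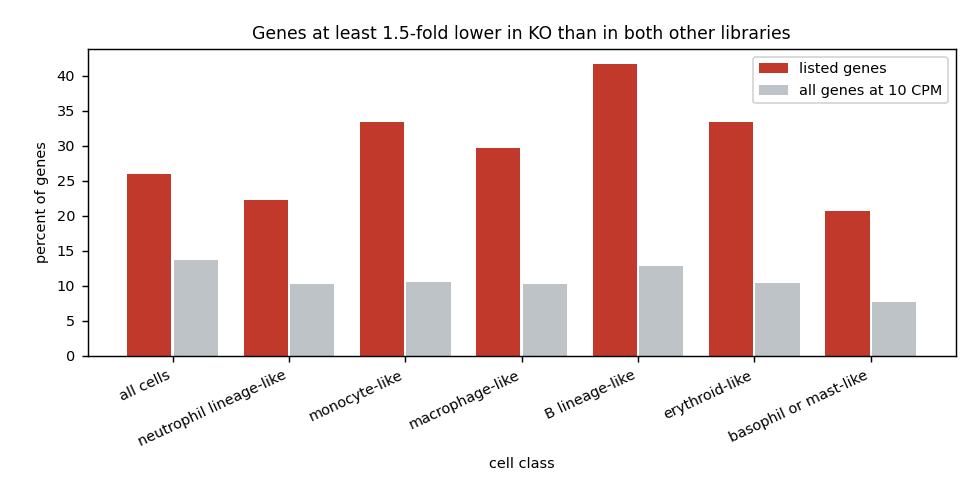
Percent of genes at least 1.5-fold lower in KO than in both other libraries, for the listed genes (red) and all genes with a mean of at least 10 CPM (grey), over all cells and in 6 cell classes. The listed genes stand highest in B-lineage-like cells, at 41.7% against 12.8% of all genes, a count that was 2 of 23 members without dividing and surrogate light chain cells, and lowest in basophil or mast-like cells, at 20.7% against 7.69%.

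**Figure D2:**
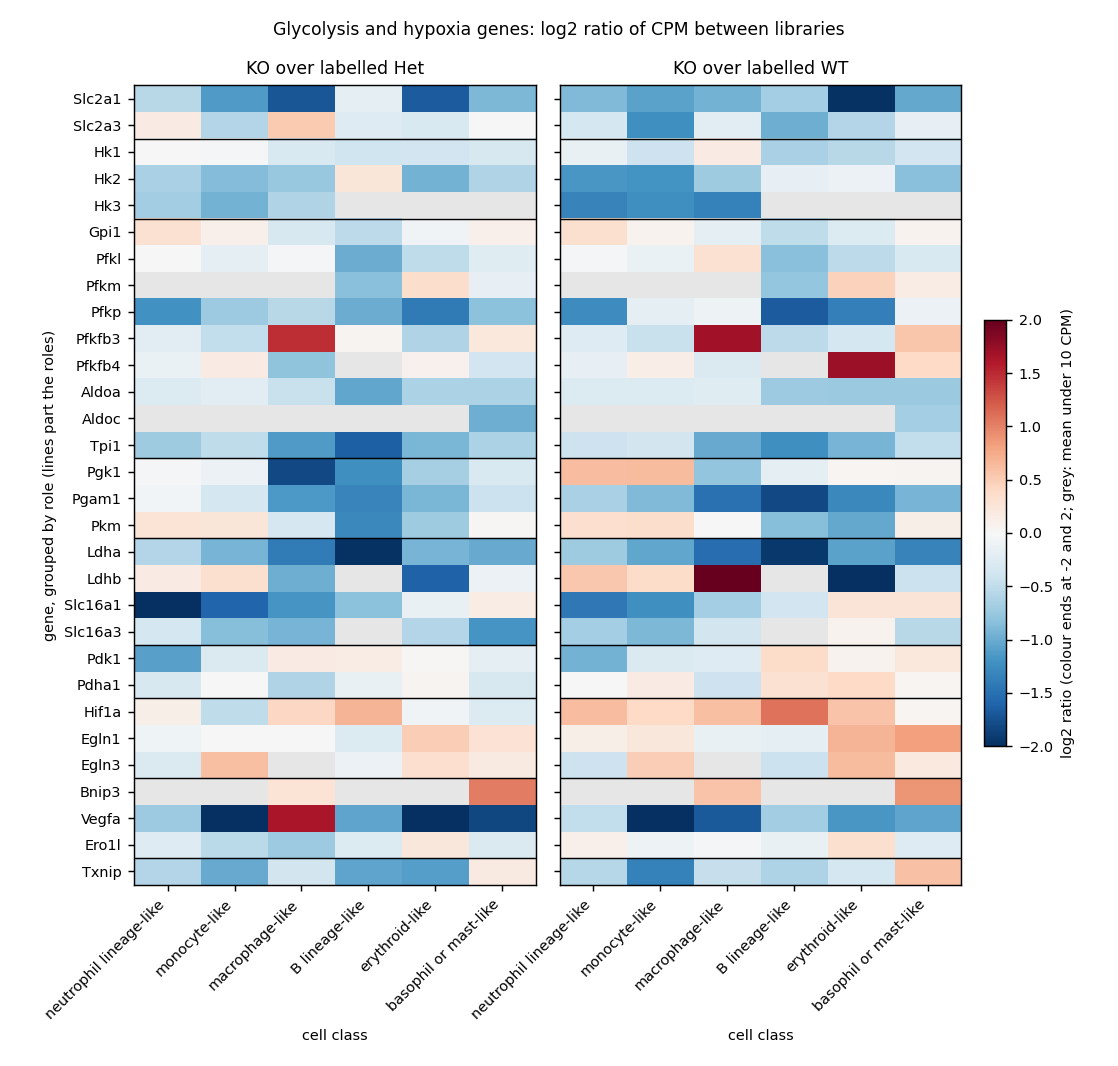
Log2 ratio of CPM in KO over labelled Het (left) and over labelled WT (right) for 30 members (rows, grouped by role) in 6 cell classes (columns). Blue is lower in KO, red is higher, and grey marks a mean under 10 CPM in that class. The Ldha row is blue in all 12 squares, whereas the Gpi1, Pkm, Hif1a, Egln1 and Egln3 rows hold red squares.

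Glucose uptake differed by carrier. Slc2a1 (GLUT1), the carrier most cells use at rest and during growth, was below both other libraries in all 6 classes and passed the 1.5-fold rule in 4. It was at 66.9 CPM in KO, 146 in labelled Het and 141 in labelled WT in monocyte-like cells, with log2 ratios of -1.13 against labelled Het (95% interval -1.21 to -1.05) and -1.07 against labelled WT (-1.16 to -0.98). KO monocyte-like cells thus held less than both control libraries, which differed little (labelled Het over labelled WT 0.056). In erythroid-like cells, which rely on this carrier, Slc2a1 was at 80.2 CPM in KO, 255 in labelled Het and 317 in labelled WT. In basophil or mast-like cells it was at 66.9 CPM in KO, 125 in labelled Het and 136 in labelled WT. The neutrophil lineage (44.2 CPM in KO, 64.6 in labelled Het and 81.4 in labelled WT) and B-lineage-like cells (37.2 CPM in KO, 42.7 in labelled Het and 59.5 in labelled WT) kept the order but missed the rule against labelled Het. In macrophage-like cells the levels were 156 CPM in KO, 512 in labelled Het and 302 in labelled WT. Erythroid markers in those cells summed to 541 CPM in KO, 2043 in labelled Het and 415 in labelled WT, and without the cells that carried them Slc2a1 was at 142 CPM in KO, 228 in labelled Het and 144 in labelled WT, so that KO and labelled WT no longer differed by the rule. With every cell thinned to 3000 UMIs the ratio of the whole macrophage-like class to labelled WT turned to 0.29.

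Slc2a3 (GLUT3), the high-affinity carrier of neutrophils, did not follow Slc2a1 in the neutrophil lineage as a whole. Its neutrophil-lineage levels were 495 CPM in KO, 444 in labelled Het and 634 in labelled WT, with KO between the other libraries. With the neutrophil stages weighted alike across libraries, KO came below labelled Het as well, so that KO was then lowest for both carriers. In monocyte-like cells it was at 25.6 CPM in KO, 38.6 in labelled Het and 59.6 in labelled WT, lower in KO than in both, and the labelled libraries differed as well (-0.63). Its log2 ratio to labelled Het was -0.59, and that call held under only 1 of 10 alternatives. In B-lineage-like cells it was at 31.6 CPM in KO, 37.8 in labelled Het and 62.5 in labelled WT, while the neutrophil marker sum in those cells was 5864 CPM in KO, 8962 in labelled Het and 13094 in labelled WT. Whether neutrophil RNA in the B-lineage-like cells has a part in this order was not tested. Slc2a3 in basophil or mast-like cells was nearly level, at 279 CPM in KO, 281 in labelled Het and 313 in labelled WT. Erythroid-like cells had 90.7 CPM in KO, 113 in labelled Het and 136 in labelled WT, and macrophage-like cells 44.9 CPM in KO, 30.8 in labelled Het and 52.3 in labelled WT.

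Of the hexokinases, which trap glucose as glucose 6-phosphate, Hk2 and Hk3 were lower in KO by the rule in the neutrophil lineage, monocyte-like and macrophage-like cells. Hk2, the inducible form, was at 71.4 CPM in KO, 130.3 in labelled Het and 164 in labelled WT in monocyte-like cells, with log2 ratios of -0.87 against labelled Het (95% interval -0.95 to -0.78) and -1.20 against labelled WT (-1.28 to -1.11). It was at 43.9 CPM in KO, 68.5 in labelled Het and 98.6 in labelled WT in the neutrophil lineage. Both classes ranked KO lowest and labelled WT highest. Hk2 also passed the rule in macrophage-like cells (62.1 CPM in KO, 105 in labelled Het and 101 in labelled WT) and basophil or mast-like cells (162 CPM in KO, 246 in labelled Het and 288 in labelled WT). In B-lineage-like cells it was scarce and KO lay between the other libraries, at 12.8 CPM in KO, 10.9 in labelled Het and 14.3 in labelled WT. Erythroid-like cells had 34.2 CPM in KO, 66.3 in labelled Het and 36.7 in labelled WT, which set labelled Het apart and not KO.

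Hk3, the form of mature myeloid cells, was at 52.1 CPM in KO, 84.4 in labelled Het and 132 in labelled WT in the neutrophil lineage. It was at 21.0 CPM in KO, 40.5 in labelled Het and 49.2 in labelled WT in monocyte-like cells and 89.8 CPM in KO, 135 in labelled Het and 229.6 in labelled WT in macrophage-like cells. KO was lowest in all 3, but labelled Het was also below labelled WT, with a log2 ratio between them of -0.64 in the neutrophil lineage. The macrophage-like cells of the library labelled WT also carried the most neutrophil marker RNA, with a sum of 7602 CPM in KO, 7831 in labelled Het and 17311 in labelled WT. Its part in their Hk3 level was not tested. Hk3 was under 10 CPM in the other 3 classes, with 6 UMIs in KO, 23 in labelled Het and 62 in labelled WT in B-lineage-like cells. Hk1, the form most cells share, was at 152 CPM in KO, 153 in labelled Het and 169 in labelled WT in the neutrophil lineage and 744 CPM in KO, 970.2 in labelled Het and 1091 in labelled WT in erythroid-like cells, and passed the rule in 0 of 6 classes. Its levels were 88.6 CPM in KO, 90.6 in labelled Het and 118 in labelled WT in monocyte-like cells and 34.8 CPM in KO, 45.7 in labelled Het and 54.8 in labelled WT in B-lineage-like cells. Hk1 was at 261 CPM in KO, 326 in labelled Het and 342 in labelled WT in basophil or mast-like cells. KO was the lowest library in each of these, by less than 1.5-fold against labelled Het, but under TMM scaling it came above labelled Het in the neutrophil lineage and in monocyte-like cells. Macrophage-like cells were the exception, at 48.0 CPM in KO, 59.0 in labelled Het and 42.2 in labelled WT. Hk3 had 4 UMIs in KO, 10 in labelled Het and 4 in labelled WT in erythroid-like cells and 2 UMIs in KO, 8 in labelled Het and 2 in labelled WT in basophil or mast-like cells.

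Upper glycolysis, from glucose 6-phosphate to the triose phosphates, held members that lay on either side of the control libraries. Gpi1, which turns glucose 6-phosphate to fructose 6-phosphate, was above both other libraries in KO in the neutrophil lineage, at 1028 CPM in KO, 833 in labelled Het and 821 in labelled WT. Its ratios of 0.30 against labelled Het and 0.32 against labelled WT did not reach 1.5-fold. Monocyte-like cells had 599 CPM in KO, 557 in labelled Het and 569 in labelled WT, which were close together. In B-lineage-like cells the order turned, with 175 CPM in KO, 252 in labelled Het and 249 in labelled WT. Erythroid-like cells (459.9 CPM in KO, 481 in labelled Het and 555 in labelled WT) and macrophage-like cells (201 CPM in KO, 249 in labelled Het and 226 in labelled WT) also placed KO lowest. It was highest in basophil or mast-like cells, at 694 CPM in KO, 647 in labelled Het and 659 in labelled WT.

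Phosphofructokinase, the committed step, is built from muscle, liver and platelet subunits. Pfkp, the platelet subunit, was below both other libraries in KO in all 6 classes. It was at 20.2 CPM in KO, 46.8 in labelled Het and 48.1 in labelled WT in the neutrophil lineage, with log2 ratios of -1.21 against labelled Het (95% interval -1.28 to -1.14) and -1.25 against labelled WT (-1.33 to -1.18), and the control libraries were alike (-0.041). In B-lineage-like cells it was at 52.2 CPM in KO, 104 in labelled Het and 165 in labelled WT and in erythroid-like cells at 20.3 CPM in KO, 54.8 in labelled Het and 52.6 in labelled WT. In monocyte-like cells (117 CPM in KO, 192 in labelled Het and 132 in labelled WT) KO and labelled WT lay close together, and labelled Het was the library apart. The same held in macrophage-like cells (49.2 CPM in KO, 72.4 in labelled Het and 52.3 in labelled WT) and in basophil or mast-like cells (92.5 CPM in KO, 163 in labelled Het and 100.5 in labelled WT). With Leiden clusters KO came above labelled Het in macrophage-like cells.

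Pfkl, the liver subunit, was level in the neutrophil lineage (63.5 CPM in KO, 63.2 in labelled Het and 64.4 in labelled WT) and lower in KO in B-lineage-like cells (46.5 CPM in KO, 92.2 in labelled Het and 83.3 in labelled WT). It was close to level in monocyte-like cells (126 CPM in KO, 144 in labelled Het and 138 in labelled WT) and in macrophage-like cells (117 CPM in KO, 119 in labelled Het and 94.5 in labelled WT). Erythroid-like cells had 167 CPM in KO, 237 in labelled Het and 239.6 in labelled WT and basophil or mast-like cells 154 CPM in KO, 182 in labelled Het and 190.3 in labelled WT, with KO lowest short of the rule. Pfkm, the muscle subunit, had 987 UMIs in KO, 1409 in labelled Het and 621 in labelled WT over all cells and stayed under 10 CPM in the neutrophil lineage and in monocyte-like and macrophage-like cells. It was at 7.34 CPM in KO, 13.1 in labelled Het and 12.7 in labelled WT in B-lineage-like cells, lower in KO by the rule, and at 100.3 CPM in KO, 78.8 in labelled Het and 72.7 in labelled WT in erythroid-like cells, where KO was the highest library. Its level in basophil or mast-like cells was 29.1 CPM in KO, 32.9 in labelled Het and 26.0 in labelled WT. The low counts of Pfkm were 160 UMIs in KO, 306 in labelled Het and 144 in labelled WT in the neutrophil lineage, 307 UMIs in KO, 145 in labelled Het and 121 in labelled WT in monocyte-like cells and 7 UMIs in KO, 10 in labelled Het and 4 in labelled WT in macrophage-like cells. The subunits of this enzyme therefore did not share one order across classes.

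Pfkfb3 and Pfkfb4 make and break fructose 2,6-bisphosphate, the strongest activator of phosphofructokinase. Pfkfb3 gave the one member higher by the rule in macrophage-like cells, at 176 CPM in KO, 63.0 in labelled Het and 54.0 in labelled WT, from 286 UMIs in KO, 47 in labelled Het and 32 in labelled WT. Its log2 ratios there were 1.47 against labelled Het (95% interval 1.03 to 1.96) and 1.68 against labelled WT (1.17 to 2.28), and all 10 alternatives kept the call. Elsewhere Pfkfb3 was not raised in KO by the rule, with 64.5 CPM in KO, 75.6 in labelled Het and 77.3 in labelled WT in the neutrophil lineage and 15.7 CPM in KO, 22.02 in labelled Het and 21.4 in labelled WT in monocyte-like cells. B-lineage-like cells had 83.5 CPM in KO, 80.0 in labelled Het and 119.9 in labelled WT of Pfkfb3 and erythroid-like cells 18.1 CPM in KO, 27.5 in labelled Het and 22.9 in labelled WT. Basophil or mast-like cells had 97.8 CPM in KO, 84.6 in labelled Het and 66.2 in labelled WT, the other class with KO highest. Pfkfb4 was near level in the neutrophil lineage (121 CPM in KO, 132 in labelled Het and 135 in labelled WT). In erythroid-like cells it was at 44.1 CPM in KO, 41.6 in labelled Het and 13.2 in labelled WT, which sets the library labelled WT apart from both others and not KO. Pfkfb4 stood at 42.1 CPM in KO, 37.6 in labelled Het and 38.2 in labelled WT in monocyte-like cells and 24.0 CPM in KO, 41.6 in labelled Het and 28.7 in labelled WT in macrophage-like cells. Basophil or mast-like cells had 15.9 CPM in KO, 21.0 in labelled Het and 11.8 in labelled WT, and B-lineage-like cells 46 UMIs in KO, 132 in labelled Het and 107 in labelled WT.

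Aldoa and Aldoc are aldolases, which split fructose 1,6-bisphosphate, and Tpi1 interconverts the triose phosphates that result. Aldoa was below both other libraries in KO in all 6 classes and passed the rule in 3. It was at 100.3 CPM in KO, 207 in labelled Het and 166 in labelled WT in B-lineage-like cells, 255 CPM in KO, 398 in labelled Het and 429 in labelled WT in erythroid-like cells and 369.9 CPM in KO, 574 in labelled Het and 622 in labelled WT in basophil or mast-like cells. The neutrophil-lineage gap was smaller, at 368 CPM in KO, 446 in labelled Het and 446 in labelled WT, and under TMM scaling KO came above labelled Het there. Monocyte-like cells (505 CPM in KO, 591 in labelled Het and 607 in labelled WT) and macrophage-like cells (343 CPM in KO, 468 in labelled Het and 403 in labelled WT) likewise missed the rule. Aldoa has a row under a different gene identifier as well, with 65 UMIs in KO, 53 in labelled Het and 51 in labelled WT, and only the larger row (ENSMUSG00000030695) was used. Aldoc had 256 UMIs in KO, 713 in labelled Het and 411 in labelled WT over all cells and reached 10 CPM only in basophil or mast-like cells, at 13.2 CPM in KO, 26.6 in labelled Het and 21.3 in labelled WT. It was lower by the rule there, but from few UMIs with a wide counting error. Elsewhere Aldoc was scarce, with 62 UMIs in KO, 147 in labelled Het and 112 in labelled WT in the neutrophil lineage and 104 UMIs in KO, 92 in labelled Het and 94 in labelled WT in monocyte-like cells. The other classes held 7 UMIs in KO, 82 in labelled Het and 52 in labelled WT (B-lineage-like), 6 UMIs in KO, 51 in labelled Het and 18 in labelled WT (erythroid-like) and 6 UMIs in KO, 14 in labelled Het and 2 in labelled WT (macrophage-like).

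Tpi1 was at 79.5 CPM in KO, 246 in labelled Het and 186 in labelled WT in B-lineage-like cells, with log2 ratios of -1.63 against labelled Het (95% interval -1.78 to -1.49) and -1.22 against labelled WT (-1.37 to -1.08). It was at 99.7 CPM in KO, 218 in labelled Het and 201 in labelled WT in macrophage-like cells and 209 CPM in KO, 395 in labelled Het and 399.6 in labelled WT in erythroid-like cells. KO was lowest in every class, although in the neutrophil lineage (98.3 CPM in KO, 161 in labelled Het and 132 in labelled WT) the gap to labelled WT was under 1.5-fold. Monocyte-like cells had 221 CPM in KO, 315 in labelled Het and 286 in labelled WT and basophil or mast-like cells 198 CPM in KO, 308 in labelled Het and 278 in labelled WT, also within 1.5-fold of labelled WT.

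Lower glycolysis yields ATP and pyruvate. Pgk1, phosphoglycerate kinase, makes the first ATP. The control libraries differed on it, with labelled WT below labelled Het in all 6 classes. It was at 183 CPM in KO, 188 in labelled Het and 119 in labelled WT in the neutrophil lineage and 269 CPM in KO, 291 in labelled Het and 174 in labelled WT in monocyte-like cells, so KO lay near labelled Het and above labelled WT. Only macrophage-like cells placed Pgk1 lower in KO by the rule, at 48.0 CPM in KO, 169 in labelled Het and 82.7 in labelled WT. The remaining classes had 75.8 CPM in KO, 177 in labelled Het and 85.8 in labelled WT (B-lineage-like), 109.6 CPM in KO, 173 in labelled Het and 106 in labelled WT (erythroid-like) and 191 CPM in KO, 236 in labelled Het and 183 in labelled WT (basophil or mast-like), so labelled Het was the library apart.

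Pgam1, phosphoglycerate mutase, was highest in labelled WT in all 6 classes and lowest in KO. It was at 264 CPM in KO, 338 in labelled Het and 486 in labelled WT in monocyte-like cells and 42.6 CPM in KO, 107 in labelled Het and 149.6 in labelled WT in B-lineage-like cells, with B-lineage log2 ratios of -1.32 against labelled Het (95% interval -1.53 to -1.13) and -1.81 against labelled WT (-2.01 to -1.62). KO and labelled Het were close together in the neutrophil lineage (219 CPM in KO, 228 in labelled Het and 343 in labelled WT). KO came above labelled Het there under TMM and median-of-ratios scaling, with thinned cells and with composition held equal. It passed the rule in macrophage-like cells (85.5 CPM in KO, 189 in labelled Het and 239.7 in labelled WT) and erythroid-like cells (79.7 CPM in KO, 149.8 in labelled Het and 194 in labelled WT). Basophil or mast-like cells had 149.7 CPM in KO, 202 in labelled Het and 286 in labelled WT.

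Pkm, pyruvate kinase, makes the last ATP and pyruvate, and its order changed with the class. KO was the highest library in the neutrophil lineage, at 622 CPM in KO, 514 in labelled Het and 492 in labelled WT, and in monocyte-like cells, at 738 CPM in KO, 626 in labelled Het and 577 in labelled WT. Neither reached 1.5-fold. In B-lineage-like cells Pkm was lower in KO by the rule, at 160.2 CPM in KO, 389.9 in labelled Het and 289.6 in labelled WT, and in erythroid-like cells at 152 CPM in KO, 249 in labelled Het and 311 in labelled WT. Macrophage-like cells had 388 CPM in KO, 488 in labelled Het and 388 in labelled WT and basophil or mast-like cells 496 CPM in KO, 490.1 in labelled Het and 459 in labelled WT, both close to level between KO and labelled WT. Pgk1, Pgam1, Tpi1 and Ldha have many processed copies in the mouse genome, and probes that match more than one copy would leave their levels uncertain.

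Ldha, the lactate dehydrogenase subunit that favours lactate, was the one member lower in KO by the rule in all 6 classes. The gene (ENSMUSG00000063229) lies on chromosome 7, 46841475 to 46855627, plus strand, GRCm38, and the promoter window printed above belongs to a RefSeq start within this span. In B-lineage-like cells it was at 173 CPM in KO, 685 in labelled Het and 663 in labelled WT, with log2 ratios of -1.98 against labelled Het (95% interval -2.08 to -1.89) and -1.93 against labelled WT (-2.03 to -1.84). KO was 3.95-fold below labelled Het and 3.82-fold below labelled WT there, and the controls were alike (0.048). Macrophage-like cells had 242 CPM in KO, 639 in labelled Het and 697 in labelled WT. Monocyte-like cells had 420.4 CPM in KO, 802 in labelled Het and 865 in labelled WT. In both, KO stood apart and the control libraries lay together.

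Ldha was at 783 CPM in KO, 1497 in labelled Het and 1647 in labelled WT in erythroid-like cells and 541 CPM in KO, 1093 in labelled Het and 1364 in labelled WT in basophil or mast-like cells. The gap was smallest in the neutrophil lineage, at 258 CPM in KO, 388 in labelled Het and 423 in labelled WT, with log2 ratios of -0.59 against labelled Het (95% interval -0.61 to -0.57) and -0.72 against labelled WT (-0.74 to -0.69). That call was lost in 7 of 11 alternatives, each time with KO still lowest. With the neutrophil stages weighted alike across libraries, the ratios were -0.41 against labelled Het and -0.59 against labelled WT. In monocyte-like, macrophage-like and B-lineage-like cells the Ldha call held under all 10 alternatives each.

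Ldhb, the subunit that favours pyruvate, was scarce and went its own way. It was at 92.0 CPM in KO, 73.4 in labelled Het and 70.9 in labelled WT in monocyte-like cells, where KO was the highest library. In erythroid-like cells it was at 7.35 CPM in KO, 22.8 in labelled Het and 38.1 in labelled WT, from 26 UMIs in KO, 137 in labelled Het and 55 in labelled WT, and KO was the lowest. Neutrophil-lineage levels were 15.9 CPM in KO, 14.2 in labelled Het and 10.9 in labelled WT and basophil or mast-like levels 14.1 CPM in KO, 15.4 in labelled Het and 18.9 in labelled WT. B-lineage-like cells held only 17 UMIs in KO, 83 in labelled Het and 96 in labelled WT. In macrophage-like cells it was at 12.3 CPM in KO, 24.1 in labelled Het and 1.69 in labelled WT, from 20 UMIs in KO, 18 in labelled Het and 1 in labelled WT, which placed KO between the others.

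Lactate leaves cells through monocarboxylate carriers. Slc16a1 (MCT1), the widespread carrier, was at 20.4 CPM in KO, 60.9 in labelled Het and 47.7 in labelled WT in monocyte-like cells, with log2 ratios of -1.58 against labelled Het (95% interval -1.72 to -1.44) and -1.23 against labelled WT (-1.39 to -1.07). Neutrophil-lineage levels of Slc16a1 were 4.74 CPM in KO, 18.9 in labelled Het and 12.8 in labelled WT, lower in KO, and most of its UMIs lay in the precursor stage. B-lineage-like cells had 259 CPM in KO, 457 in labelled Het and 338 in labelled WT, with KO lowest but within 1.5-fold of labelled WT. Macrophage-like cells had 15.997 CPM in KO, 36.2 in labelled Het and 25.3 in labelled WT, lower by the rule. Those levels rest on few UMIs, so their counting error is wide. KO was not lowest in erythroid-like cells (182 CPM in KO, 202 in labelled Het and 152 in labelled WT) or in basophil or mast-like cells (39.6 CPM in KO, 35.7 in labelled Het and 33.1 in labelled WT).

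Slc16a3 (MCT4), the export carrier of strongly glycolytic cells, was at 67.3 CPM in KO, 122 in labelled Het and 126 in labelled WT in monocyte-like cells, where KO was 1.80-fold below labelled Het and 1.87-fold below labelled WT. It was at 146 CPM in KO, 187 in labelled Het and 234 in labelled WT in the neutrophil lineage, where KO was again lowest but the gap to labelled Het was smaller. Slc16a3 was also lowest in KO in macrophage-like cells (94.1 CPM in KO, 179.6 in labelled Het and 122 in labelled WT) and basophil or mast-like cells (88.9 CPM in KO, 203 in labelled Het and 130.01 in labelled WT), short of the rule against labelled WT. Erythroid-like cells had 64.7 CPM in KO, 97.2 in labelled Het and 61.6 in labelled WT, and B-lineage-like cells 21 UMIs in KO, 136 in labelled Het and 149 in labelled WT.

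**Figure D3:**
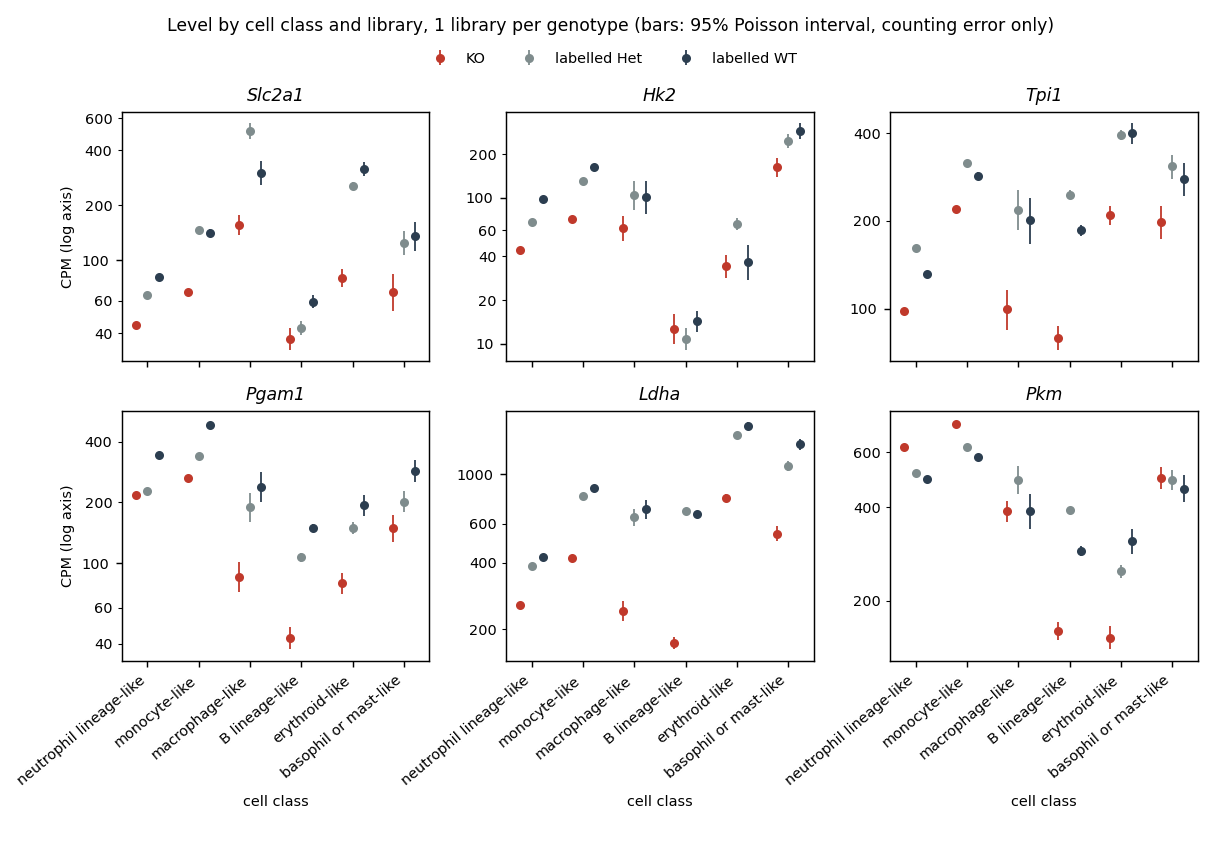
CPM (log axis) of Slc2a1, Hk2, Tpi1, Pgam1, Ldha and Pkm in KO, labelled Het and labelled WT, in 6 cell classes. Points are 1 library each and bars are 95% Poisson intervals, which cover counting error only. The KO point of Ldha is lowest in every class, as in B-lineage-like cells at 173 CPM, whereas that of Pkm is highest in the neutrophil lineage at 622 CPM.

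Pyruvate enters the mitochondrion through pyruvate dehydrogenase, whose catalytic subunit is Pdha1 and which Pdk1 switches off. Pdk1, a HIF-1 target, was at 11.6 CPM in KO, 24.5 in labelled Het and 22.3 in labelled WT in the neutrophil lineage, lower in KO by the rule, and at 62.5 CPM in KO, 76.0 in labelled Het and 76.7 in labelled WT in monocyte-like cells, where the gap was small. In B-lineage-like cells KO was the highest library, at 69.5 CPM in KO, 62.9 in labelled Het and 54.2 in labelled WT. Erythroid-like cells had 224 CPM in KO, 219 in labelled Het and 213 in labelled WT and basophil or mast-like cells 49.3 CPM in KO, 55.9 in labelled Het and 42.5 in labelled WT, both near level, and macrophage-like cells 68.3 CPM in KO, 60.3 in labelled Het and 81.0 in labelled WT. Pdha1 passed the rule in 0 of 6 classes. It was at 84.6 CPM in KO, 106 in labelled Het and 84.6 in labelled WT in the neutrophil lineage and 201 CPM in KO, 202 in labelled Het and 180.1 in labelled WT in monocyte-like cells. The other classes had 191 CPM in KO, 213 in labelled Het and 154 in labelled WT (B-lineage-like), 328 CPM in KO, 316 in labelled Het and 247 in labelled WT (erythroid-like), 62.1 CPM in KO, 93.8 in labelled Het and 82.7 in labelled WT (macrophage-like) and 182 CPM in KO, 229 in labelled Het and 177 in labelled WT (basophil or mast-like). In these classes Pdha1 lay closer to level than Ldha.

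The oxygen sensing members did not share the lower levels of the enzymes. Hif1a, the oxygen-regulated subunit of HIF-1, was above labelled WT in KO in all 6 classes. It was at 46.8 CPM in KO, 29.1 in labelled Het and 22.1 in labelled WT in B-lineage-like cells, higher in KO by the rule, with log2 ratios of 0.69 against labelled Het (95% interval 0.45 to 0.92) and 1.08 against labelled WT (0.83 to 1.34). In the neutrophil lineage it was at 19.0 CPM in KO, 17.6 in labelled Het and 12.4 in labelled WT, and in monocyte-like cells at 30.4 CPM in KO, 43.3 in labelled Het and 23.03 in labelled WT, where labelled Het was highest. Macrophage-like cells had 62.8 CPM in KO, 46.9 in labelled Het and 40.5 in labelled WT, with KO highest. Erythroid-like cells had 20.9 CPM in KO, 21.98 in labelled Het and 13.9 in labelled WT and basophil or mast-like cells 28.2 CPM in KO, 34.3 in labelled Het and 27.2 in labelled WT. HIF-1 is controlled mainly through the stability of its protein, which these data do not measure.

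Egln1 and Egln3 encode the prolyl hydroxylases that mark HIF-1 for destruction, and Egln3 is itself a HIF-1 target. Egln1 was at 145 CPM in KO, 143 in labelled Het and 124 in labelled WT in monocyte-like cells and 218 CPM in KO, 155 in labelled Het and 135 in labelled WT in erythroid-like cells. Egln3 was at 29.0 CPM in KO, 19.2 in labelled Het and 20.6 in labelled WT in monocyte-like cells and 120.1 CPM in KO, 94.7 in labelled Het and 77.6 in labelled WT in erythroid-like cells. KO was highest in all 4 of these, and in basophil or mast-like cells, with 92.5 CPM in KO, 75.5 in labelled Het and 52.0 in labelled WT of Egln1 and 147 CPM in KO, 129 in labelled Het and 129 in labelled WT of Egln3. Neutrophil-lineage Egln1 was at 76.6 CPM in KO, 81.5 in labelled Het and 70.4 in labelled WT and Egln3 at 34.9 CPM in KO, 42.6 in labelled Het and 46.6 in labelled WT. B-lineage-like cells had 85.96 CPM in KO, 104 in labelled Het and 98.8 in labelled WT of Egln1 and 17.5 CPM in KO, 19.0 in labelled Het and 23.5 in labelled WT of Egln3, with KO lowest by a small gap. Macrophage-like cells had 75.1 CPM in KO, 75.1 in labelled Het and 82.7 in labelled WT of Egln1, and 17 UMIs in KO, 8 in labelled Het and 5 in labelled WT of Egln3. Both genes passed the rule in 0 of 6 classes.

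HIF-1 targets outside glycolysis did not share one direction either. Vegfa, the growth factor for blood vessels, was at 3.74 CPM in KO, 25.4 in labelled Het and 16.4 in labelled WT in monocyte-like cells, with log2 ratios of -2.76 against labelled Het (95% interval -3.07 to -2.47) and -2.13 against labelled WT (-2.47 to -1.80). It was also lower in KO in B-lineage-like cells (32.7 CPM in KO, 67.8 in labelled Het and 52.8 in labelled WT) and erythroid-like cells (12.7 CPM in KO, 53.3 in labelled Het and 28.4 in labelled WT). In basophil or mast-like cells Vegfa was counted as lower from 5 UMIs in KO, 24 in labelled Het and 8 in labelled WT (4.40 CPM in KO, 16.8 in labelled Het and 9.45 in labelled WT), with log2 ratios of -1.82 against labelled Het (95% interval -3.68 to -0.51) and -1.05 against labelled WT (-3.06 to 0.69). The interval against labelled WT spans 0, and labelled Het alone was above 10 CPM. The neutrophil lineage had 36.9 CPM in KO, 61.2 in labelled Het and 52.0 in labelled WT, lower in KO but within 1.5-fold of labelled WT. In macrophage-like cells it was at 18.5 CPM in KO, 5.36 in labelled Het and 59.1 in labelled WT, which placed KO between the others. Bnip3, which brings mitochondria to autophagy, had 880 UMIs in KO, 804 in labelled Het and 733 in labelled WT over all cells and reached 10 CPM in 2 classes. In basophil or mast-like cells it was at 15.9 CPM in KO, 7.69 in labelled Het and 8.27 in labelled WT, from 18 UMIs in KO, 11 in labelled Het and 7 in labelled WT, with log2 ratios of 1.02 against labelled Het (95% interval -0.12 to 2.27) and 0.88 against labelled WT (-0.39 to 2.44). Both intervals span 0, so that this difference was within counting error, although KO passed the 1.5-fold rule. It was at 13.5 CPM in KO, 10.7 in labelled Het and 8.44 in labelled WT in macrophage-like cells. The other classes held 470 UMIs in KO, 394 in labelled Het and 435 in labelled WT (neutrophil lineage), 248 UMIs in KO, 126 in labelled Het and 119 in labelled WT (monocyte-like), 38 UMIs in KO, 153 in labelled Het and 119 in labelled WT (B-lineage-like) and 40 UMIs in KO, 47 in labelled Het and 10 in labelled WT (erythroid-like).

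Ero1l, an oxidase of the endoplasmic reticulum, was at 319 CPM in KO, 383 in labelled Het and 297 in labelled WT in the neutrophil lineage and 175 CPM in KO, 253 in labelled Het and 187 in labelled WT in monocyte-like cells, and passed the rule in 0 of 6 classes. B-lineage-like cells had 49.4 CPM in KO, 59.9 in labelled Het and 55.0 in labelled WT and macrophage-like cells 50.5 CPM in KO, 83.1 in labelled Het and 50.6 in labelled WT. Basophil or mast-like cells had 604 CPM in KO, 739 in labelled Het and 719 in labelled WT. Only erythroid-like cells, at 106 CPM in KO, 89.9 in labelled Het and 84.5 in labelled WT, placed KO highest.

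Txnip, an arrestin that rises with glucose and holds back its uptake, was lower in KO in monocyte-like cells, at 220.3 CPM in KO, 442 in labelled Het and 559 in labelled WT, with log2 ratios of -1.004 against labelled Het (95% interval -1.05 to -0.96) and -1.34 against labelled WT (-1.39 to -1.30). In B-lineage-like cells it was at 278 CPM in KO, 577 in labelled Het and 425 in labelled WT, also lower by the rule. Its neutrophil-lineage levels were 241 CPM in KO, 361 in labelled Het and 359 in labelled WT, just short of 1.5-fold, and the control libraries were nearly equal there. Basophil or mast-like cells turned the order, with 1314 CPM in KO, 1159 in labelled Het and 872 in labelled WT. Macrophage-like cells (641 CPM in KO, 829.7 in labelled Het and 879 in labelled WT) and erythroid-like cells (620.1 CPM in KO, 1336 in labelled Het and 789 in labelled WT) placed KO lowest, short of the rule. A carrier (Slc2a1) and the arrestin that restrains it were thus both lowest in KO in monocyte-like cells.

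Within the neutrophil lineage, stage mattered more for some members than for others. Cells were split by summed markers into granulocyte precursors (302 in KO, 499 in labelled Het and 429 in labelled WT), granule-stage cells that were dividing (1837, 1585 and 1437) or not dividing (766, 1394 and 1821), and mature cells (2432, 1554 and 2389). Moving the thresholds to 0.8 or 1.2 times their values changed the stage of 578 KO, 401 labelled Het and 515 labelled WT cells. Members lower by the rule numbered 7 of 28 in precursors, against 20.4% of all genes. They numbered 4 of 24 in dividing granule-stage cells (6.18%), 3 of 24 in those not dividing (6.65%) and 4 of 24 in mature cells (5.57%). In precursors the members' share was thus near the background. Members higher numbered 1 in precursors (background 3.53%), 0 and 0 in the dividing and non-dividing granule stages (2.93% and 4.13%) and 0 in mature cells (9.21%).

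Ldha was at 348 CPM in KO, 703 in labelled Het and 733 in labelled WT in precursors, with log2 ratios of -1.01 against labelled Het (95% interval -1.06 to -0.97) and -1.08 against labelled WT (-1.13 to -1.02), and at 253 CPM in KO, 312 in labelled Het and 364 in labelled WT in mature cells, where the gap was under 1.5-fold. Txnip was at 153 CPM in KO, 315 in labelled Het and 298 in labelled WT in precursors and 396 CPM in KO, 491 in labelled Het and 455 in labelled WT in mature cells, and its gap in dividing granule-stage cells (183 CPM in KO, 365 in labelled Het and 373 in labelled WT) was as wide as in precursors. Slc16a1 was at 39.9 CPM in KO, 101 in labelled Het and 82.9 in labelled WT in precursors and had 7 UMIs in KO, 11 in labelled Het and 21 in labelled WT in mature cells. Pdk1 was at 59.6 CPM in KO, 99.4 in labelled Het and 108 in labelled WT in precursors and under 10 CPM in the other 3 stages. The lineage-wide level of Slc16a1 therefore rests mainly on the precursors, which were 302 of 5337 KO cells and a larger share of both other libraries. With stages weighted alike across libraries, the log2 ratios of Slc16a1 were -1.35 against labelled Het and -1.15 against labelled WT. Those of Pdk1 were then -0.59 and -0.66, and those of Txnip -0.55 and -0.49. Cells within the precursor stage also differed between libraries. Precursor markers there summed to 32357.5 CPM in KO, 48495.9 in labelled Het and 54436.5 in labelled WT. Granule-stage markers there summed to 44085 CPM in KO, 35203 in labelled Het and 38617 in labelled WT. The part of this difference in the precursor ratios was not tested.

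Pfkp and Hk3 showed the opposite pattern. Pfkp was at 36.0 CPM in KO, 63.5 in labelled Het and 45.7 in labelled WT in precursors and 15.1 CPM in KO, 59.8 in labelled Het and 67.7 in labelled WT in mature cells, where KO was 3.95-fold below labelled Het and 4.48-fold below labelled WT. Hk3 was at 29.2 CPM in KO, 27.1 in labelled Het and 35.5 in labelled WT in precursors, with KO between the others, and at 72.2 CPM in KO, 129 in labelled Het and 188 in labelled WT in mature cells, with KO lowest. Dividing-cell markers in mature cells summed to 579 CPM in KO, 177 in labelled Het and 76.5 in labelled WT. Their part in these gaps was not tested. The lineage-wide Hk3 call was lost under TMM and median-of-ratios scaling and with dividing cells left out. Hk2 was at 54.2 CPM in KO, 93.7 in labelled Het and 97.8 in labelled WT in precursors and 33.0 CPM in KO, 58.3 in labelled Het and 97.9 in labelled WT in mature cells, below both in each. Slc2a1 was at 64.4 CPM in KO, 123 in labelled Het and 131 in labelled WT in mature cells, lower by the rule, and at 33.4 CPM in KO, 39.0 in labelled Het and 47.9 in labelled WT in dividing granule-stage cells, where it missed the rule. Gpi1 was at 1056 CPM in KO, 745 in labelled Het and 696 in labelled WT in mature cells, above both other libraries and just past 1.5-fold against labelled WT alone. Ldhb, scarce elsewhere in the lineage, was higher in KO by the rule in precursors, at 87.7 CPM in KO, 56.1 in labelled Het and 54.1 in labelled WT.

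**Figure D4:**
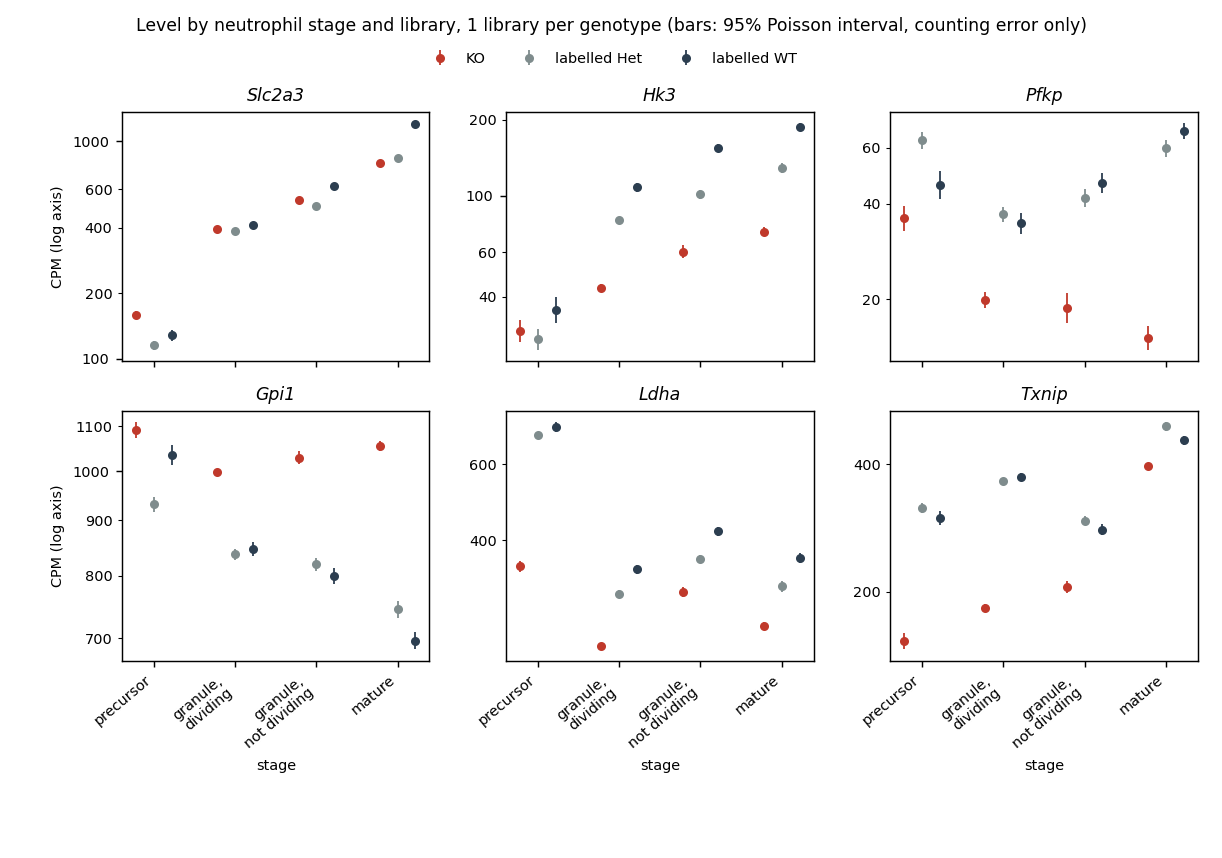
CPM (log axis) of Slc2a3, Hk3, Pfkp, Gpi1, Ldha and Txnip in KO, labelled Het and labelled WT, in 4 stages of the neutrophil lineage. Points are 1 library each and bars are 95% Poisson intervals, which cover counting error only. The Ldha gap is widest in precursors, the Txnip gap is narrowest in mature cells, and the Pfkp gap is widest in mature cells, at 15.1 CPM in KO and 67.7 CPM in labelled WT.

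In B-lineage-like cells the make-up of the class differed between libraries. The share of lower members stood above the background in dividing and in non-dividing cells. It came near the background once cells with surrogate light chain UMIs were left out as well. Dividing cells were 132 of 870 in KO, 552 of 1234 in labelled Het and 703 of 1815 in labelled WT. Within dividing cells 7 of 26 members were lower by the rule (background 7.41%), and within cells not dividing 10 of 26 (11.6%). Of those 10, KO was under 10 CPM for Pfkm, Ldhb and Slc16a3, which passed the minimum only through the other libraries. In each subset 1 member was higher (7.19% and 4.7%), Hk2 in dividing cells and Hif1a in the others. Few Hk2 UMIs were counted in the dividing KO cells, so its counting error is wide. Ldha was at 207 CPM in KO, 835 in labelled Het and 801 in labelled WT in dividing cells and 160.3 CPM in KO, 365 in labelled Het and 448 in labelled WT in the others. Aldoa was at 45.2 CPM in KO, 213 in labelled Het and 163 in labelled WT in dividing cells, where KO stood far below both controls. Tpi1, Pgam1, Pkm, Pfkl and Ldha were lower in KO by the rule in both subsets.

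Igll1 and Vpreb1 encode the surrogate light chain that marks early precursor B cells. Leaving out dividing cells and all cells with a UMI of either gene kept 675 KO, 495 labelled Het and 817 labelled WT cells. In these only 2 of 23 members were lower by the rule, against 7.21% of all genes. They were Ldha, at 157 CPM in KO, 243 in labelled Het and 264 in labelled WT, and Txnip, at 300.02 CPM in KO, 848 in labelled Het and 616 in labelled WT. Pdk1, at 77.5 CPM in KO, 46.7 in labelled Het and 43.7 in labelled WT, and Hif1a, at 50.6 CPM in KO, 31.8 in labelled Het and 29.1 in labelled WT, were higher by the rule (background 4.61%). The member medians shrank to -0.31 against labelled Het and -0.30 against labelled WT. Tpi1, at 67.8 CPM in KO, 109 in labelled Het and 85.0 in labelled WT, and Pkm, at 148 CPM in KO, 231 in labelled Het and 182 in labelled WT, had KO lowest within 1.5-fold of labelled WT. The ratios of these enzymes were thus nearer 0 once dividing and early cells were left out. This subset was chosen after the values were seen.

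**Figure D5:**
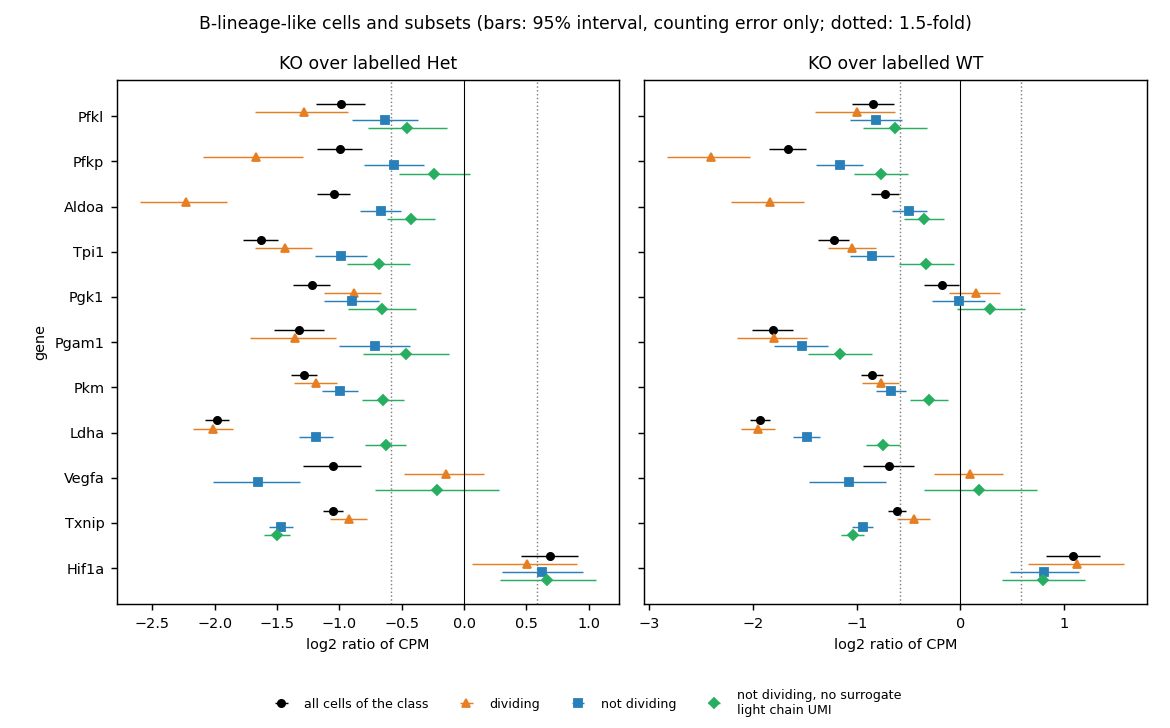
Log2 ratio of CPM in KO over labelled Het (left) and over labelled WT (right) for 11 members in B-lineage-like cells and 3 subsets. Bars are 95% intervals, which cover counting error only, and dotted lines mark 1.5-fold. For Ldha the ratio against labelled Het is -1.98 in the class and -0.63 in cells that are not dividing and lack surrogate light chain UMIs, while Txnip lies further from 0 in that subset (-1.05 and -1.50).

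Macrophage-like cells were few, and cells that also carried red cell markers lay mainly in the library labelled Het. Without cells at or above the erythroid threshold, a choice made after the values were seen, 117 KO, 70 labelled Het and 74 labelled WT cells were left. Members lower by the rule then numbered 5 of 27 (background 9.98%). They were Hk2, Tpi1, Pgk1, Pgam1 and Ldha, and 1 member was higher (11%). Ldha was at 244 CPM in KO, 637 in labelled Het and 693 in labelled WT and Tpi1 at 99.2 CPM in KO, 216 in labelled Het and 195 in labelled WT, little different from the whole class. Slc2a1, Hk3 and Slc16a1 no longer passed the rule, with Hk3 at 87.8 CPM in KO, 129.7 in labelled Het and 232 in labelled WT and Slc16a1 at 13.3 CPM in KO, 18.3 in labelled Het and 17.1 in labelled WT. Pfkfb3 stayed higher by the rule, at 179 CPM in KO, 64.9 in labelled Het and 53.2 in labelled WT.

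Monocyte-like cells gave nearly the same members whether dividing or not. In dividing cells (624 in KO, 309 in labelled Het and 398 in labelled WT) 9 of 27 were lower by the rule (background 8.42%). In cells not dividing (536, 397 and 398) 9 of 27 were lower (14.7%). Slc2a1, Hk2, Hk3, Ldha, Slc16a1, Slc16a3, Vegfa and Txnip were lower in both. Slc16a1 was at 15.98 CPM in KO, 69.5 in labelled Het and 63.7 in labelled WT in cells not dividing and 22.5 CPM in KO, 53.5 in labelled Het and 36.7 in labelled WT in dividing cells. Members higher numbered 1 in dividing cells (background 4.33%) and 0 in the others (7.1%). The one was Egln3, at 25.3 CPM in KO, 15.9 in labelled Het and 16.3 in labelled WT. Granulocyte precursor markers in monocyte-like cells summed to 8139 CPM in KO, 11681 in labelled Het and 12632 in labelled WT, and mature neutrophil markers to 2714 CPM in KO, 1177 in labelled Het and 1071 in labelled WT. Their part in these ratios was not tested.

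Among 83 further genes of the same pathways, lower and higher members were closer in number. Over all cells 9 of the 57 at 10 CPM were lower by the rule and 4 were higher. In the neutrophil lineage 6 of 51 were lower and 3 higher, in monocyte-like cells 7 of 62 and 7, in macrophage-like cells 9 of 65 and 8, and in B-lineage-like cells 5 of 58 and 4. Their median log2 ratios over all cells were -0.05 against labelled Het and 0.07 against labelled WT. The share that was lower, from 8.62% in B-lineage-like to 15.8% over all cells, is to be read beside the backgrounds given above for the same cells (12.8% and 13.6%). The share that was higher was 7.02% over all cells (background 2.73%), 5.88% in the neutrophil lineage (2.61%), 11.3% in monocyte-like cells (5.15%), 12.3% in macrophage-like cells (10.9%) and 6.9% in B-lineage-like cells (9.74%). The list was chosen with earlier results known.

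Myc, the growth regulator that drives many glycolytic genes, was lower in KO by the rule in the neutrophil lineage, monocyte-like, macrophage-like and B-lineage-like cells and over all cells. It was at 17.4 CPM in KO, 153 in labelled Het and 80.8 in labelled WT in the neutrophil lineage, 57.8 CPM in KO, 399 in labelled Het and 261 in labelled WT in monocyte-like cells and 67.4 CPM in KO, 140.0 in labelled Het and 166 in labelled WT in B-lineage-like cells, and labelled Het stood above labelled WT in the first 2. P4ha1, a collagen prolyl hydroxylase induced by HIF-1, was at 5.83 CPM in KO, 22.96 in labelled Het and 18.4 in labelled WT in the neutrophil lineage. Mif, an inflammatory cytokine, was at 104 CPM in KO, 253 in labelled Het and 255 in labelled WT in B-lineage-like cells, and Ankrd37, a HIF-1 target, at 6.42 CPM in KO, 21.5 in labelled Het and 21.998 in labelled WT in monocyte-like cells. Arrdc4, a relative of Txnip, was at 17.3 CPM in KO, 43.8 in labelled Het and 48.1 in labelled WT in the neutrophil lineage. Fam162a, a HIF-1 target at mitochondria, was at 38.1 CPM in KO, 97.9 in labelled Het and 92.8 in labelled WT in macrophage-like cells. Stc2, a secreted glycoprotein of the stress response, was at 5.19 CPM in KO, 42.7 in labelled Het and 20.2 in labelled WT in monocyte-like cells. Tigar, which lowers fructose 2,6-bisphosphate, was at 12.04 CPM in KO, 34.4 in labelled Het and 27.4 in labelled WT there. At the levels given here P4ha1, Ankrd37 and Stc2 were under 10 CPM in KO and passed the minimum only through the other libraries.

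Macrophage-like cells were also lower in Bpgm, the bisphosphoglycerate mutase of red cells, at 17.2 CPM in KO, 89.8 in labelled Het and 52.3 in labelled WT. The part of the erythroid marker RNA in those cells was not tested for Bpgm. Gpd2, of the glycerol phosphate shuttle, was at 20.9 CPM in KO, 37.5 in labelled Het and 62.5 in labelled WT, and P4ha2, a relative of P4ha1, was at 6.15 CPM in KO, 18.8 in labelled Het and 20.3 in labelled WT, from 10 UMIs in KO, 14 in labelled Het and 12 in labelled WT. P4ha2 thus passed the 10 CPM minimum only through the other libraries. Pgm1, a phosphoglucomutase, was at 10.7 CPM in KO, 17.6 in labelled Het and 19.9 in labelled WT in B-lineage-like cells.

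The genes of the wider list that were higher in KO by the rule had mixed roles. Ddit4, an inhibitor of mTORC1 under stress, was at 371 CPM in KO, 163 in labelled Het and 126 in labelled WT in B-lineage-like cells and 26.2 CPM in KO, 7.66 in labelled Het and 6.66 in labelled WT in the neutrophil lineage, where it passed the 10 CPM minimum only through KO. Bnip3l, a mitophagy receptor related to Bnip3, was at 125 CPM in KO, 62.4 in labelled Het and 43.4 in labelled WT in monocyte-like cells. Mpc1, a subunit of the carrier that brings pyruvate into mitochondria, was at 259 CPM in KO, 142 in labelled Het and 94.0 in labelled WT there. Cited2, which competes with HIF-1 for its coactivator, was at 387 CPM in KO, 164 in labelled Het and 91.2 in labelled WT in macrophage-like cells. Pdk2, a relative of Pdk1, was at 36.9 CPM in KO, 5.36 in labelled Het and 8.44 in labelled WT in macrophage-like cells, from 60 UMIs in KO, 4 in labelled Het and 5 in labelled WT, and also passed the minimum only through KO. Ugp2, which feeds glycogen synthesis, was at 131 CPM in KO, 84.7 in labelled Het and 57.8 in labelled WT in the neutrophil lineage. H6pd, the hexose 6-phosphate dehydrogenase of the endoplasmic reticulum, was at 159 CPM in KO, 63.0 in labelled Het and 65.8 in labelled WT in macrophage-like cells. Pgm2l1, a glucose 1,6-bisphosphate synthase, was at 35.6 CPM in KO, 22.96 in labelled Het and 15.2 in labelled WT in monocyte-like cells and 35.7 CPM in KO, 14.7 in labelled Het and 16.9 in labelled WT in macrophage-like cells. Pfkfb2, a relative of Pfkfb3, was at 26.4 CPM in KO, 14.4 in labelled Het and 13.5 in labelled WT in B-lineage-like cells, and Ndrg1, a hypoxia-induced stress gene, at 22.2 CPM in KO, 14.6 in labelled Het and 13.6 in labelled WT. Anxa2, an annexin, was at 829 CPM in KO, 512 in labelled Het and 523 in labelled WT over all cells. It was not higher by the rule in the neutrophil lineage, monocyte-like or B-lineage-like cells, and it was lower by the rule in macrophage-like cells.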

How the data were processed

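The deposited files hold counts of UMIs per gene and barcode, which the authors made with Cell Ranger 7.0.0 on mm10, per the submitters' processing notes. No source used here gives the probe set version or the barcode filters. Scrublet (scanpy 1.11.5) marked 298 of 8245 KO, 186 of 8000 labelled Het and 273 of 9600 labelled WT barcodes as doublets, which were left out. Each cell was placed in a class when the summed CPM of that class's markers passed a threshold. Thresholds were 150000 for the neutrophil lineage, 2500 for monocytes and 5000 for macrophages and B lineage. Those for erythroid cells and for basophils or mast cells were 1500 and 2500. Cells with 5000 CPM of granulocyte precursor markers, or 10000 of mature-stage markers, also joined the neutrophil lineage unless past the monocyte threshold or that of another lineage. The same values set the precursor and mature stages. A cell past the monocyte threshold and that of another class joined the other class, unless that was the neutrophil lineage. Cells past the macrophage threshold were not counted as erythroid, and those past the B-lineage threshold not as dendritic. Stem and progenitor markers were used only for cells left without a class. Cells with other combinations, or with none, joined no class. Dividing cells had at least 1000 CPM of cell-cycle markers. UMIs were summed per library and class and divided by their total.

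Log2 ratios had 0.5 UMI added. Intervals of levels are exact Poisson and those of ratios exact conditional binomial, at 95%. With 1 library per genotype no test was run. A member was called lower or higher where KO lay at least 1.5-fold beyond both other libraries, among genes whose mean reached 10 CPM. Every member was named, with levels where its class mean reached 10 CPM and UMI counts otherwise. Of 83 further pathway genes, the 5 furthest from both other libraries in each direction were taken per class and over all cells. Of those, 1 gene is not reported here. Members and lists were chosen with earlier results of these data known. The 1.5-fold rule and the ratio intervals were tried on simulated neutrophil-lineage counts with known folds and counting error only. Doublet marking, cell classes, scaling and differences between libraries were not simulated.

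Alternatives were TMM scaling (edgeR 4.0.16), median-of-ratios scaling (DESeq2 1.42.0), totals without the 50 highest genes, minimum means of 1 and 50 CPM, all barcodes kept, cells weighted equally, cells thinned to 3000 UMIs, Leiden clusters (leidenalg 0.10.2), dividing cells left out and composition held equal. Python 3.11.15, numpy 2.4.6, scipy 1.17.1, pandas 2.3.3, matplotlib 3.10.9 and R 4.3.3 were used. Sequences came from RefSeq tables of GRCm38.p6.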

Additional observations from a re-analysis of the deposited data

Results flagged for a closer look

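Of the members called in opposite directions in different cells, 4 stood out, and none of these differences between classes was tested. Hk2 was higher in KO in dividing B-lineage-like cells, with log2 ratios of 0.82 against labelled Het and 0.62 against labelled WT, and lower in monocyte-like cells that were not dividing, with -1.004 and -1.26. Its B-lineage level there was 17.6 CPM in KO, 10.1 in labelled Het and 11.6 in labelled WT. The KO level comes from 132 cells with 1593641 UMIs of all genes, so few Hk2 UMIs were counted and the counting error is wide. Pfkfb3 was higher in KO in macrophage-like cells, with 1.47 against labelled Het and 1.68 against labelled WT, and lower in monocyte-like cells that were not dividing, with -0.71 and -0.69.

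Ldhb was higher in KO in granulocyte precursors, with 0.65 against labelled Het and 0.70 against labelled WT, and lower in B-lineage-like cells that were not dividing, with -1.83 and -2.54, from 12 UMIs in KO, 43 in labelled Het and 73 in labelled WT. In those B-lineage-like cells Ldhb was under 10 CPM in KO and passed the minimum only through the other libraries. Pdk1 was higher in KO in B-lineage-like cells that were not dividing and had no surrogate light chain UMI, with 0.73 against labelled Het and 0.82 against labelled WT. In the neutrophil lineage it was lower, with -1.08 and -0.95.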

How the results depend on the processing

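Scaling decided the sign of the list's median in the 2 largest units. Against labelled Het it turned to 0.10 over all cells and 0.062 in the neutrophil lineage under TMM, and to 0.067 and 0.019 under median-of-ratios. TMM moved the medians of all genes to 0.18 and 0.14 over all cells and 0.23 and 0.21 in the neutrophil lineage. Against labelled WT the members' median was then -0.014 and -0.085 under TMM, and -0.020 and -0.091 under median-of-ratios. Members lower over all cells numbered 1 under TMM, 2 under median-of-ratios and 4 without the 50 highest genes, beside 7, and members higher 3 under each scaling. In the neutrophil lineage members lower numbered 3 under both scalings, a minimum of 50 CPM, equal cell weights and thinning, beside 6, and members higher 2 under TMM and 1 under median-of-ratios.

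Other all-cell medians against labelled Het were -0.15 without the 50 highest genes, -0.19 thinned and -0.32 without dividing cells. Against labelled WT they were -0.23, -0.25 and -0.26 in these settings, -0.33 with either minimum and -0.24 with equal cell weights. In the neutrophil lineage the median against labelled Het was -0.23 without the 50 highest genes and with composition held equal. Against labelled WT it was -0.33 and -0.38 in those settings, -0.42 with a minimum of 1 CPM, -0.28 with 50 CPM, -0.31 thinned or without dividing cells and -0.32 with Leiden clusters.

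In monocyte-like cells members lower numbered 5 with a minimum of 50 CPM, and 1 was higher under both scalings, equal weights, thinning and Leiden clusters. In macrophage-like cells members lower numbered 5 without cells with erythroid markers, and 2 were higher with Leiden clusters. In B-lineage-like cells 2 were lower and 2 higher without dividing and surrogate light chain cells, and 0 were higher with a minimum of 50 CPM or equal weights. The erythroid and surrogate light chain settings were chosen after seeing the data. Single-member ratios of any size turned sign in 164 of 2694 recomputed values, 73 of them among the 528 under the 2 scalings. Of ratios that were past 1.5-fold, 3 did so, all in macrophage-like cells: Pfkfb4 against labelled Het with equal weights (0.00176), Slc2a1 against labelled WT (0.29) and Pdha1 against labelled Het (0.043), both thinned. Apart from these 3, 1765 single-member values moved by less than their counting interval and 926 by more. The causes were not tested.

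No paired analysis was possible because each genotype had 1 library. Leiden clusters give no value for all cells, and composition could be held equal only for all cells and the neutrophil lineage. Counting error limits the basophil or mast-like (62 to 91 cells) and macrophage-like classes (83 to 124 cells).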
